A study of Mus musculus with 9 samples.

Results

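Melanocyte lineage regulators are the transcription factors and cell surface receptors that establish and maintain pigment cells. The 10 genes described here, Mitf, Sox10, Pax3, Tfap2a, Lef1, Tbx2, Mc1r, Kit, Ednrb and Erbb3, were taken by name as known regulators of this lineage, and all 10 were among the 22396 genes of the deposited counts. FLAG-tagged RIG-I, a cytosolic sensor of RNA, was precipitated from B16F10 mouse melanoma cells, and the RNA bound to it was depleted of ribosomal RNA and sequenced (RIP-seq). The cells carried a control shRNA (shCtr) or an shRNA against Osgep, the catalytic subunit of the KEOPS complex that places threonylcarbamoyl groups on tRNAs. The comparisons ask which bound RNAs differ once OSGEP is depleted, and each of the 2 shRNAs against Osgep was compared apart.

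The 3 groups were B16F10 cells with shCtr, with shOSGEP#1 and with shOSGEP#2, with 3 replicates each from independent experiments and 9 libraries in all. All groups were of the same cell line, stably expressed FLAG-tagged RIG-I and received their shRNA by lentivirus. Total RNA of the lysates does not enter these comparisons, so a change in the amount of an mRNA in the cell and a change in its binding to RIG-I cannot be told apart. Levels are given as CPM, counts scaled to the library total.

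Mitf encodes a basic helix-loop-helix leucine zipper factor that drives the pigment program and melanocyte survival. SOX10 and PAX3 act upstream of it and switch on its melanocyte promoter, where LEF1 with beta-catenin and CREB downstream of cyclic AMP also act. MC1R is the receptor that raises cyclic AMP in response to melanocortins, while KIT, EDNRB and ERBB3 receive stem cell factor, endothelins and neuregulins and feed the RAS and ERK pathway.

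Total counts in replicates 1, 2 and 3 were 40333037, 47750758 and 41805753 for shCtr and 34551436, 50224299 and 30697653 for shOSGEP#1. In shOSGEP#2 they were 25460689, 568995 and 14914731. The library of shOSGEP#2 replicate 2 was therefore far shallower than the others, and its values are given apart from those of the other libraries. Of 8297 genes at which the other shOSGEP#2 libraries would give at least 10 counts at this depth, 4427 (53.4%) had no count in it. Unless stated otherwise, tests used the other 8 libraries. Mitochondrially encoded genes took 2.96% of the counts of shOSGEP#1 replicate 3, while no other library of the fit exceeded 0.445%.

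Osgep, the target of the shRNAs, was at 19.1, 19.9 and 15.5 CPM in shCtr and at 3.76, 1.15 and 1.53 CPM in shOSGEP#1. With shOSGEP#2 it was at 0.0786 CPM in replicate 1 and 2.88 CPM in replicate 3, and replicate 2 had no count. Every library with an shRNA against Osgep was below every control library. The log2 fold changes were −3.10 ± 0.73 (SE) for shOSGEP#1 and −3.84 ± 0.93 for shOSGEP#2, with Benjamini-Hochberg adjusted p of 0.0128 and 0.0150 in edgeR's quasi-likelihood test, just over the threshold of 0.01 used here. Without shOSGEP#2 replicate 1 or 3 the shOSGEP#1 difference passed, at −3.11 each time. Without shOSGEP#2 replicate 3 alone the shOSGEP#2 difference was −7.86 and passed, a value that rests on 2 counts in the library left. Ddx58, which encodes RIG-I, had 180, 184 and 278 CPM in shCtr, 232, 216 and 327 CPM in shOSGEP#1, and 402 and 429 CPM in shOSGEP#2 replicates 1 and 3. All cells also expressed the FLAG-tagged RIG-I construct, and whether its transcripts enter these counts was not tested. Neither difference of Ddx58 from shCtr passed the threshold, with log2 fold changes of 0.26 ± 0.21 and 0.86 ± 0.23. The value with shOSGEP#2 was 1.10 without shCtr replicate 3 and then passed, and shOSGEP#2 replicate 2 had no Ddx58 count.

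The shRNAs are listed with different runs of Osgep bases, and the groups were kept apart. For each shRNA 41 bases are listed, and the middle 21 were taken as the target run, an assumption that the sources do not state. These runs are given in capitals, and the matches rest on that assumption. The run of shOSGEP#1 was found in 4 of 8 annotated Osgep transcripts, in the 3′ UTR of those that code for protein, and the run of shOSGEP#2 in 7 of 8, in the coding sequence.
shOSGEP#1: CCAACATGACGCCACAATAAA
shOSGEP#2: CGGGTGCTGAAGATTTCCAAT

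Of the 10 regulators, 7 had enough counts for the test, and 3 did not. With shOSGEP#1, 2 of the 7 (Tfap2a and Mc1r) fell and none rose at an adjusted p under 0.01, against 4.67% of the 12744 genes tested that fell and 5.00% that rose. With shOSGEP#2, 3 of the 7 (Sox10, Tbx2 and Mc1r) fell and none rose, against 3.89% of all genes that fell and 5.66% that rose. Mc1r was the regulator that fell with both shRNAs. The median log2 fold change of the 7 tested regulators was 0.03 with shOSGEP#1 and −0.99 with shOSGEP#2, where the medians over all genes tested were 0.00 and −0.06. These comparisons share the shCtr libraries and are no independent repeats of each other.

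Sox10 encodes an HMG box factor of the neural crest that is needed for melanocyte specification and for Mitf transcription. It was at 884, 824 and 890 CPM in shCtr, at 875, 862 and 972 CPM in shOSGEP#1, and at 417 and 514 CPM in shOSGEP#2 replicates 1 and 3. The shCtr and shOSGEP#1 libraries overlapped, and both shOSGEP#2 libraries lay below all of them. Sox10 fell with shOSGEP#2 by 0.99 ± 0.16 on the log2 scale (edgeR quasi-likelihood test, Benjamini-Hochberg adjusted p = 0.00158). The log2 fold change with shOSGEP#1 was 0.05 ± 0.14, with an adjusted p of 0.841 in the same edgeR test. The difference between the shRNAs passed the threshold too, with a log2 fold change of −1.04 ± 0.16 for shOSGEP#2 against shOSGEP#1 (edgeR, adjusted p = 0.00101). Omission of shOSGEP#2 replicate 1 left a log2 fold change from shCtr of −0.88, which no longer passed the threshold. The sign with shOSGEP#1 turned without its replicate 3, at −0.00976.

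Tbx2 encodes a T-box repressor that keeps melanoma cells from senescence. Its level was 298, 289 and 272 CPM in shCtr and 344, 366 and 314 CPM in shOSGEP#1, and 103 and 164 CPM in shOSGEP#2 replicates 1 and 3. The groups did not overlap, with shOSGEP#1 highest and shOSGEP#2 lowest. Tbx2 fell with shOSGEP#2 by 1.20 ± 0.20 on the log2 scale (edgeR quasi-likelihood test, Benjamini-Hochberg adjusted p = 0.00182). For shOSGEP#1 the log2 fold change was 0.24 ± 0.17, and the edgeR adjusted p of 0.345 did not pass the threshold. Between the shRNAs the log2 fold change was −1.44 ± 0.20, with an adjusted p of 0.00064 in edgeR.

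Mitf itself was at 297, 357 and 784 CPM in shCtr and at 401, 400 and 448 CPM in shOSGEP#1. It was at 168 and 216 CPM in shOSGEP#2 replicates 1 and 3. The control libraries spread widely, with replicate 3 far above the others, and the shOSGEP#1 libraries lay inside their range, while both shOSGEP#2 libraries lay below every other library. With shOSGEP#2 the log2 fold change was −1.42 ± 0.35, and the adjusted p of 0.0166 (edgeR quasi-likelihood test, Benjamini-Hochberg) did not pass the threshold. With shOSGEP#1 it was −0.22 ± 0.30 (edgeR adjusted p = 0.656). The sign of this difference rested on shCtr replicate 3: without that library the log2 fold change was 0.34. Without shCtr replicate 1, the log2 fold change with shOSGEP#2 was −1.67 and passed the threshold. Between the shRNAs the log2 fold change was −1.20 ± 0.35, which did not pass. It passed with shCtr replicate 3 omitted, and DESeq2 on the same 8 libraries called Mitf both in this comparison and with shOSGEP#2 against shCtr. With the replicate number as a block Mitf passed in both as well, at −1.31 between the shRNAs and −1.42 with shOSGEP#2 against shCtr.

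Tfap2a encodes AP-2 alpha, a factor that binds regulatory regions of pigment genes together with MITF. It was at 206, 192 and 300 CPM in shCtr, at 118, 101 and 119 CPM in shOSGEP#1 and at 127 and 156 CPM in shOSGEP#2 replicates 1 and 3. All libraries with an shRNA against Osgep lay below the controls. Tfap2a fell with shOSGEP#1 by 1.06 ± 0.19 on the log2 scale (edgeR quasi-likelihood test, Benjamini-Hochberg adjusted p = 0.00295), and without shOSGEP#1 replicate 2 the value was −0.98 and did not pass. With shOSGEP#2 the log2 fold change of −0.81 ± 0.21 did not pass the threshold (edgeR adjusted p = 0.0196). It was −0.90 with the replicate number as a block, and then passed. The shRNAs were not shown to differ at Tfap2a, where the log2 fold change between them was 0.24 ± 0.20.

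Pax3 encodes a paired box factor that acts with SOX10 on the Mitf promoter. It was at 209, 159 and 157 CPM in shCtr, at 198, 185 and 156 CPM in shOSGEP#1 and at 175 and 114 CPM in shOSGEP#2 replicates 1 and 3. The groups overlapped. The log2 fold changes from shCtr were 0.03 ± 0.19 and −0.36 ± 0.22, and neither passed the threshold. The sign of the first was not stable, at −0.04 with shCtr replicate 2, shCtr replicate 3 or shOSGEP#1 replicate 1 omitted.

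Lef1, the partner of beta-catenin at Wnt target genes, had no count in any of the 9 libraries. A count of 0 allows up to 3 counts, which corresponds to levels from 0.0597 CPM in the deepest library to 0.201 CPM in the shallowest of the 8 and 5.27 CPM in shOSGEP#2 replicate 2, for counting error only.

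Among the receptors, Mc1r had the largest differences from shCtr with both shRNAs. Its level was 202, 187 and 253 CPM in shCtr, 97.0, 105 and 59.6 CPM in shOSGEP#1, and 47.8 and 49.1 CPM in shOSGEP#2 replicates 1 and 3. The groups did not overlap, with the controls highest and shOSGEP#2 lowest. Mc1r fell by 1.31 ± 0.21 on the log2 scale with shOSGEP#1 (edgeR quasi-likelihood test, Benjamini-Hochberg adjusted p = 0.00197) and fell by 2.24 ± 0.25 with shOSGEP#2 (adjusted p = 0.000261). The mean level was 0.408 times that of shCtr with shOSGEP#1 and 0.227 times with shOSGEP#2. The difference between the shRNAs, a log2 fold change of −0.93 ± 0.24, did not pass the threshold (edgeR adjusted p = 0.0181). Omission of shOSGEP#1 replicate 3 took it to −1.14, past the threshold. Leaving out any of the 8 libraries in turn, Mc1r stayed past the threshold with both shRNAs.

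Erbb3, a neuregulin receptor that signals through a partner kinase, was at 53.5, 47.9 and 43.6 CPM in shCtr and at 52.5, 65.0 and 109 CPM in shOSGEP#1. In shOSGEP#2 replicates 1 and 3 it was at 34.6 and 42.2 CPM. The shOSGEP#1 libraries overlapped with the controls, and the shOSGEP#2 libraries lay just below them. Neither log2 fold change from shCtr passed the threshold, at 0.63 ± 0.24 with shOSGEP#1 and −0.43 ± 0.27 with shOSGEP#2. The shOSGEP#1 value was 0.27 without replicate 3, the library with the high mitochondrial share, whose part in this value was not tested further. The shRNAs differed by −1.06 ± 0.28 on the log2 scale (edgeR quasi-likelihood test, Benjamini-Hochberg adjusted p = 0.0195), over the threshold, and by −1.27 when shOSGEP#1 replicate 1 was omitted, where the difference passed.

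Kit, the receptor of stem cell factor, had no count in any library. Ednrb, the endothelin receptor of melanoblasts, had 4 counts in shOSGEP#1 replicate 1, 3 counts in replicate 2 and none elsewhere. These genes were not detectable at this depth or lay at its limit, and no fold change is given for them.

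**Figure D1:**
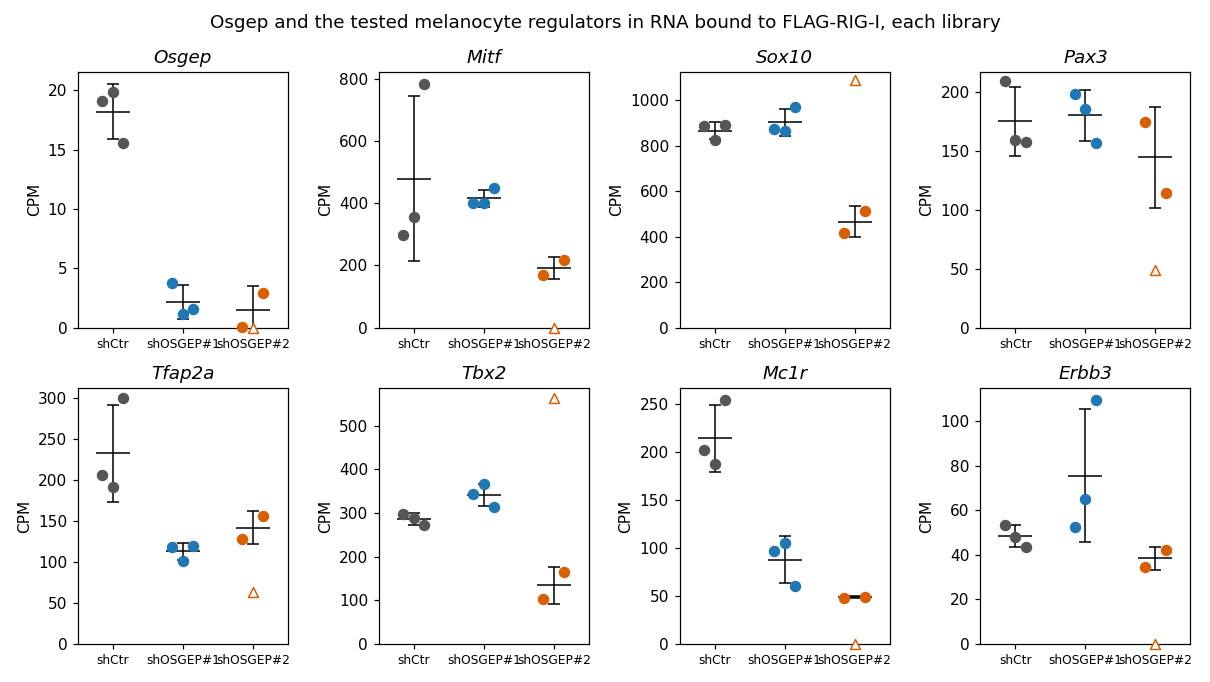
Level of Osgep and of the 7 tested regulators in each library, in CPM on axes that start at 0, by shRNA. Filled circles are the 8 libraries of the fit, the open triangle is shOSGEP#2 replicate 2, and bars are the mean ± SD of the filled circles (n = 3, 3 and 2). Mc1r is below the controls in every library with an shRNA against Osgep, while Sox10 and Tbx2 are low in the 2 shOSGEP#2 libraries of the fit. The triangle is scaled by its library total alone.

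In the direct comparison of the shRNAs, shOSGEP#2 against shOSGEP#1, 2 of the 7 tested regulators (Sox10 and Tbx2) were lower at an adjusted p under 0.01 and none was higher. Of all 12744 genes, 4.56% were lower and 6.23% higher. The median log2 fold change was −1.04 over the 7 regulators and −0.04 over all genes tested. Tfap2a was the regulator with a positive value. In these tests shOSGEP#2 rests on 2 libraries.

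**Figure D2:**
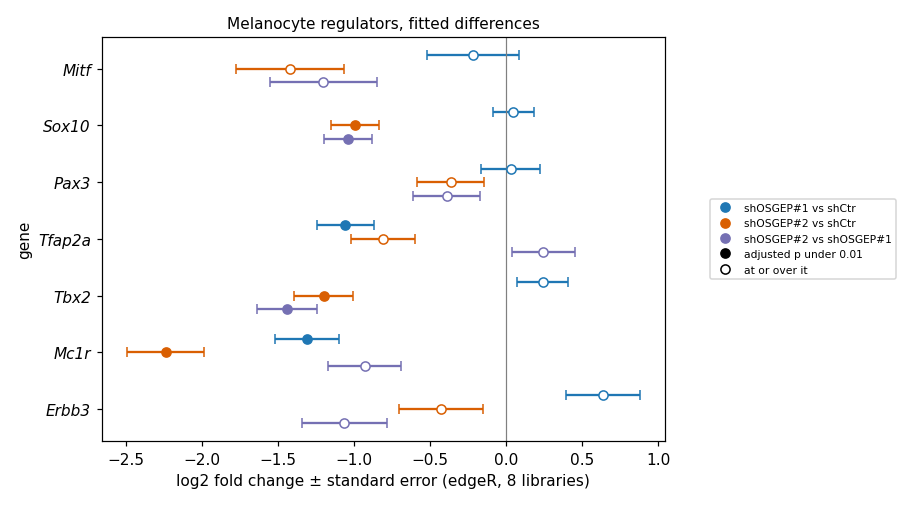
Fitted log2 fold change ± SE of the 7 tested regulators in the 3 comparisons, from edgeR on 8 libraries. Filled points have an adjusted p under 0.01, and open points are at or over it. Mc1r is filled and below 0 against shCtr with both shRNAs, Tfap2a with shOSGEP#1 alone, and Sox10 and Tbx2 with shOSGEP#2 and between the shRNAs.

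The shallow library of shOSGEP#2 replicate 2 departed from the other shOSGEP#2 libraries in both directions. Sox10 had 620 counts there, or 1090 CPM, and Tbx2 had 320 counts, or 562 CPM, which are higher than in any control library on the scale of library totals. For Sox10 this depends on the scale: with TMM factors of all 9 libraries, a scaling added after the values were seen, Sox10 was at 715 CPM there and at 881 to 963 CPM in the controls. Tbx2 was at 369 CPM on that scale, above the 294 to 320 CPM of the controls. Pax3 and Tfap2a had 28 and 36 counts, or 49.2 and 63.3 CPM. Mitf, Mc1r and Erbb3 had none, although the mean of the other shOSGEP#2 libraries would correspond to 109, 27.6 and 21.8 counts at its depth. The cause of these zeros was not tested.

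With this library included, edgeR called none of the 7 regulators in any of the 3 comparisons. The share of all 12337 genes tested that passed was 0% for shOSGEP#1 against shCtr, 0% for shOSGEP#2 against shCtr and 0% for shOSGEP#2 against shOSGEP#1. At an unadjusted p under 0.05, 0, 3 and 1 of the regulators and 620, 1240 and 1325 of all genes passed, and DESeq2 on the same 9 libraries called 122, 349 and 413 genes and no regulator. The common dispersion was 0.420 with it and 0.0692 without it. The log2 fold changes with shOSGEP#2 were then −0.75 for Sox10, −0.53 for Tbx2 and −2.77 for Mc1r. The values with shOSGEP#1 were close to those from 8 libraries, at −1.07 for Tfap2a and −1.32 for Mc1r. The median over all genes was −0.37 in the comparison of shOSGEP#2 with shCtr in that fit and −0.01 in that of shOSGEP#1.

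Levels were compared between genes per kilobase of merged exons. In shCtr, Sox10 was the highest at 284 ± 12.0 CPM per kilobase (SD, n = 3). Tbx2 at 79.0 ± 3.65, Mitf at 77.4 ± 42.8 and Mc1r at 58.8 ± 9.58 followed, and these neighbours were not apart beyond the spread of Mitf. Tfap2a at 47.4 ± 12.0 overlapped with Mc1r, and below it were Pax3 at 28.3 ± 4.74 and Erbb3 at 8.03 ± 0.826 CPM per kilobase. With the length of the longest transcript instead, Mitf and Tbx2 changed places and so did Mc1r and Tfap2a. In shOSGEP#2 the order began with Sox10, Tbx2 and Mitf as well, at 153, 36.9 and 30.9 CPM per kilobase, and Mc1r came to lie below Tfap2a and Pax3, at 13.3 against 28.9 and 23.3. With the longest transcript Sox10 was followed in shOSGEP#2 by Tfap2a, Mitf, Pax3 and Tbx2, at 40.7, 39.3, 37.4 and 36.9, so the order of these genes depends on the length used. In shOSGEP#1 Mc1r and Tfap2a, at 24.0 and 23.0 CPM per kilobase, were both below Pax3 at 29.1.

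The genes with the level most like that of Mitf over the 8 libraries were Eny2, Cuta, Stx7, Cpped1 and Tnfrsf22, among 9329 tested genes with a mean of at least 10 CPM. Pearson's r of log2(CPM + 1) with Mitf was 0.97 for Eny2 (Spearman's rho 0.93) and 0.96 for each of the others (rho 0.98, 0.83, 0.95 and 0.90). Eny2 was at 31.6, 33.0 and 55.5 CPM in shCtr, 33.6, 30.6 and 40.0 CPM in shOSGEP#1 and 19.1 and 24.3 CPM in shOSGEP#2 replicates 1 and 3. Like Mitf, it was highest in shCtr replicate 3 and lowest in shOSGEP#2, with no count in replicate 2 of that group. The most opposite genes were Irf2bp2 (r = −0.99), Rab6b (r = −0.98) and Arhgef19 (r = −0.97), with rho of −0.98, −0.90 and −1. Without the 2 libraries farthest from the median of Mitf, shOSGEP#2 replicate 1 and shCtr replicate 3, r stayed between 0.87 and 0.97 for the like genes and between −0.95 and −0.97 for the opposite ones. Being the extremes of 9329 genes over 8 libraries that also differ by shRNA, these values describe likeness only and carry no p.

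Pigment genes that MITF activates are the best known output of this network. Of 19 textbook MITF target genes, 17 were tested. With shOSGEP#2, 11 fell and 1 rose, against 3.89% and 5.66% of all genes, with a median log2 fold change of −1.66. With shOSGEP#1, 5 fell and 3 rose, against 4.67% and 5.00% of all genes, with a median of −0.21.

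Tyr encodes tyrosinase, the rate-limiting enzyme of melanin synthesis. It was at 153, 153 and 193 CPM in shCtr, at 30.4, 26.1 and 27.3 CPM in shOSGEP#1, and at 5.93 and 19.8 CPM in shOSGEP#2 replicates 1 and 3. The groups did not overlap. The log2 fold changes were −2.59 ± 0.32 and −3.83 ± 0.41 (edgeR quasi-likelihood test, Benjamini-Hochberg adjusted p = 0.000560 and 0.000213), so Tyr fell with both shRNAs. Dct, the tautomerase of the same pathway, was at 1438, 1242 and 1480 CPM in shCtr, 1621, 2060 and 1806 CPM in shOSGEP#1 and 363 and 380 CPM in shOSGEP#2 replicates 1 and 3. The shOSGEP#1 libraries were above the controls and the shOSGEP#2 libraries far below. Dct fell by 2.00 ± 0.17 with shOSGEP#2, and its log2 fold change of 0.39 ± 0.14 with shOSGEP#1 did not pass the threshold.

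Rab27a, which tethers melanosomes to actin transport, was at 204, 207 and 296 CPM in shCtr, 219, 183 and 175 CPM in shOSGEP#1 and 60.4 and 57.7 CPM in shOSGEP#2 replicates 1 and 3. Only the shOSGEP#2 libraries of the fit were separate from the controls, and Rab27a fell by 2.09 ± 0.21 with that shRNA. Cdk2, a cell cycle kinase whose promoter MITF activates in melanocytes, fell with both, with log2 fold changes of −1.13 ± 0.22 for shOSGEP#1 and −2.08 ± 0.27 for shOSGEP#2. Its controls were at 410, 506 and 743 CPM, the shOSGEP#1 libraries at 295, 262 and 209 CPM and the shOSGEP#2 libraries at 127 and 153 CPM. As for Mitf, shCtr replicate 3 was the highest control. The fall with shOSGEP#1 did not pass without shCtr replicate 2 (−1.19), shCtr replicate 3 (−0.85), shOSGEP#1 replicate 2 (−1.15) or shOSGEP#1 replicate 3 (−1.01).

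Met, the receptor of hepatocyte growth factor, fell from 53.1, 56.9 and 90.3 CPM in shCtr to 14.8, 15.9 and 20.5 CPM in shOSGEP#1 and 20.9 and 24.5 CPM in shOSGEP#2 replicates 1 and 3. The groups with an shRNA against Osgep lay below the controls, with log2 fold changes of −1.98 ± 0.23 and −1.66 ± 0.27. With 1 library left in shOSGEP#2 its value no longer passed, at −1.57 without replicate 1 and −1.74 without replicate 3. In shOSGEP#2 replicate 2, Dct was at 165 CPM, and Tyr, Rab27a, Cdk2 and Met had no count.

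The MITF targets that rose are named here after their values were seen. Bcl2, an inhibitor of apoptosis, rose by 0.89 ± 0.16 and 1.38 ± 0.18 on the log2 scale with shOSGEP#1 and shOSGEP#2. Gpnmb, a melanosome and lysosome glycoprotein, rose by 1.20 ± 0.17 with shOSGEP#1 and fell by 1.05 ± 0.19 with shOSGEP#2. Diaph1, a formin, rose by 0.84 ± 0.17 with shOSGEP#1. In shOSGEP#2 replicate 2, Bcl2 was at 239 CPM, Gpnmb at 847 CPM and Diaph1 at 0.

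**Figure D3:**
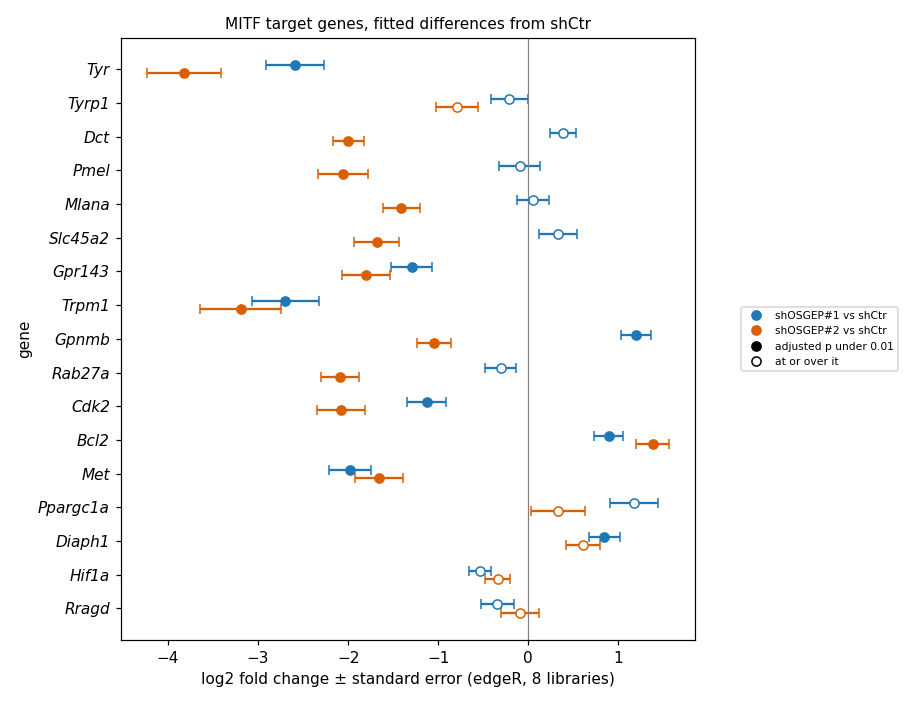
Fitted log2 fold change ± SE from shCtr of the 17 tested MITF target genes, from edgeR on 8 libraries. Filled points have an adjusted p under 0.01, and open points are at or over it. With shOSGEP#2 most filled points are below 0, and with shOSGEP#1 the filled points lie on both sides.

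Of 20 relatives and partners of the transcription factors 14 were tested, and 1 fell with shOSGEP#1 (Sox9) and 1 rose with shOSGEP#2 (Tcf7l2), where 4.67% of all genes fell with shOSGEP#1 and 5.66% rose with shOSGEP#2. So few calls do not set the list apart from all genes. The medians of the 14 were −0.29 and −0.36 on the log2 scale. Sox9, a relative of Sox10 in the same family, was at 30.3, 39.7 and 34.3 CPM in shCtr, 9.81, 7.86 and 15.0 CPM in shOSGEP#1, 9.58 and 22.4 CPM in shOSGEP#2 replicates 1 and 3 and 141 CPM in shOSGEP#2 replicate 2. Apart from that shallow library, all libraries with an shRNA against Osgep were below the controls. Sox9 fell by 1.69 ± 0.32 with shOSGEP#1 (edgeR quasi-likelihood test, Benjamini-Hochberg adjusted p = 0.00408). It did not pass when any control or shOSGEP#1 replicate 1 or 2 was omitted, with values from −1.78 to −1.50. With shOSGEP#2 the log2 fold change of −1.23 ± 0.36 did not pass, and it was 0.12 with all 9 libraries. Tcf7l2, a relative of Lef1, was at 27.1, 26.1 and 32.8 CPM in shCtr and at 46.1 and 66.5 CPM in shOSGEP#2 replicates 1 and 3, and rose by 0.87 ± 0.19. Most omissions of a library ended this call as well, with the smallest value, 0.62, without shOSGEP#2 replicate 3. Tcf7l2 had no count in shOSGEP#2 replicate 2. Sox2, Pax7, Tfap2c and Foxd3 had no count.

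Of the 12 ligands of the receptors, 11 were in the counts and 4 were tested, and none passed the threshold with either shRNA. The medians of the 4 were −0.06 and 1.47, against 0.00 and −0.06 over all genes tested. All 4 had few counts, with at most 3.02 CPM for Nrg2 and 1.54 CPM for Nrg4 in any library, so these medians rest on low levels. Edn1, Edn2, Edn3, Nrg1, Nrg3 and Wnt1 had no count. The most abundant were Pomc, the precursor of melanocortins, with 1.37 to 3.10 CPM in the 8 libraries, and Kitl, the ligand of KIT, with 0.737 to 3.75 CPM. Pomc overlapped with the controls in both groups. Kitl overlapped in shOSGEP#1, while its 2.63 and 3.75 CPM in shOSGEP#2 replicates 1 and 3 lay above every control, with a log2 fold change of 1.36 ± 0.67 that did not pass the threshold. Neither had a count in shOSGEP#2 replicate 2.

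Relatives of the receptors and their accessory proteins numbered 12, and 9 were tested. With shOSGEP#1, 1 rose, and with shOSGEP#2, 2 rose, while none fell, where 5.00% and 5.66% of all genes rose. Counts this small do not set the list apart from all genes. The medians were 0.68 and 1.42, against 0.00 and −0.06 over all genes tested. The second is the value of Pdgfra, which had an SE of 0.81 and did not pass. Csf1r, Ednra, Erbb4 and Mrap had at most 1.74 CPM in any library, so these medians rest partly on genes with few counts. Mc5r had no count. Atrn, encoding attractin, which takes part in agouti signalling at MC1R, was at 41.3, 43.3 and 37.9 CPM in shCtr and 95.7, 121 and 164 CPM in shOSGEP#1. These groups were clearly separate, and Atrn rose by 1.63 ± 0.19 on the log2 scale. Its values of 71.5 and 76.3 CPM in shOSGEP#2 replicates 1 and 3 gave a log2 fold change of 0.76 ± 0.21, which did not pass, although it did with shOSGEP#1 replicate 3 omitted. In shOSGEP#2 replicate 2 Atrn was at 197 CPM.

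Erbb2, the kinase with which ERBB3 pairs, was at 13.7, 13.9 and 15.0 CPM in shCtr, 17.1, 23.2 and 20.2 CPM in shOSGEP#1 and 31.4 and 29.0 CPM in shOSGEP#2 replicates 1 and 3. The groups did not overlap. Erbb2 rose by 1.00 ± 0.20 with shOSGEP#2, while the shOSGEP#1 value of 0.50 ± 0.18 did not pass. The rise did not pass when any control or either shOSGEP#2 library was omitted, with values from 0.90 to 1.08. Pdgfrb, a receptor kinase of the same family as KIT, rose by 2.10 ± 0.34 with shOSGEP#2, from 4.71, 4.80 and 3.06 CPM in shCtr to 13.9 and 24.7 CPM, and without shOSGEP#2 replicate 3 it was 1.67 and did not pass. In shOSGEP#2 replicate 2, Erbb2 was at 66.8 CPM and Pdgfrb had no count.

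All 28 genes of signalling downstream of the receptors were tested. With shOSGEP#1, 1 rose (Adcy3) and 3 fell (Nras and Mapk3 among them), and with shOSGEP#2, 3 rose (Plcb4, Pik3r1 and Pde4b) and none fell. Among all genes, 5.00% rose and 4.67% fell with shOSGEP#1, and 5.66% rose and 3.89% fell with shOSGEP#2, and counts this small do not set the list apart from them. The medians were −0.14 and 0.08 on the log2 scale.

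Nras, the RAS protein most often mutated in melanoma, was at 138, 165 and 166 CPM in shCtr, at 68.2, 65.7 and 42.6 CPM in shOSGEP#1 and at 262 and 275 CPM in shOSGEP#2 replicates 1 and 3. The shOSGEP#1 libraries lay below the controls and these shOSGEP#2 libraries above them, while shOSGEP#2 replicate 2 had no Nras count. Nras fell by 1.42 ± 0.18 with shOSGEP#1, and its log2 fold change of 0.68 ± 0.20 with shOSGEP#2 did not pass the threshold. That value passed with shOSGEP#1 replicate 3 omitted and was 0.12 with all 9 libraries. Mapk3, which encodes ERK1, fell by 1.01 ± 0.14 with shOSGEP#1, from 257, 195 and 220 CPM to 119, 113 and 106 CPM. With shOSGEP#2 it was at 154 and 158 CPM in replicates 1 and 3, also below the controls, with a log2 fold change of −0.62 ± 0.16 that did not pass, and replicate 2 had no count.

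Downstream of the cyclic AMP and endothelin receptors, Adcy3, an adenylyl cyclase, rose by 1.21 ± 0.22 with shOSGEP#1, from 18.9, 21.8 and 20.8 CPM to 35.9, 60.2 and 47.7 CPM. It did not pass when any control or shOSGEP#1 replicate 2 or 3 was omitted, with values from 1.01 to 1.26. In shOSGEP#2 replicates 1 and 3 Adcy3 was at 34.4 and 52.6 CPM, also above the controls. That log2 fold change of 0.98 ± 0.24 did not pass, but did with shOSGEP#1 replicate 1 (0.99) or shOSGEP#2 replicate 1 (1.23) omitted, and shOSGEP#2 replicate 2 had no count.

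Plcb4, a phospholipase C of Gq signalling, was at 39.1, 39.5 and 43.1 CPM in shCtr, 46.8, 46.6 and 36.6 CPM in shOSGEP#1 and 129 and 148 CPM in shOSGEP#2 replicates 1 and 3. These shOSGEP#2 libraries were above all others, but shOSGEP#2 replicate 2, with 3 counts or 5.27 CPM, was below every control. Plcb4 rose by 1.67 ± 0.16 with that shRNA in the 8 libraries, and its log2 fold change was 1.13 with all 9, where it did not pass.

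Of 7 feedback targets of Wnt and beta-catenin, the pathway of LEF1, 2 were tested and neither passed the threshold. The 2 genes went in opposite directions with both shRNAs, so their medians of −0.34 and −1.03 describe neither gene. Sp5 and Notum had no count. Axin2, a negative regulator of the pathway, was at 15.4, 12.8 and 15.2 CPM in shCtr, 5.79, 5.10 and 4.82 CPM in shOSGEP#1 and 5.11 and 0 CPM in shOSGEP#2 replicates 1 and 3. Its libraries with an shRNA against Osgep were all below the controls, with log2 fold changes of −1.48 ± 0.73 and −2.50 ± 0.90. The shOSGEP#1 value passed when either shOSGEP#2 library was omitted, at −1.48, and the shOSGEP#2 value passed at −1.57 without replicate 3. Without replicate 1 the library left had no Axin2 count, and no fold change is given. Znrf3, which removes Wnt receptors, had 19.4, 19.2 and 23.9 CPM in shCtr and 27.7 to 44.1 CPM in the other 5 libraries of the fit. Its log2 fold changes were 0.79 ± 0.20 with shOSGEP#1 and 0.44 ± 0.23 with shOSGEP#2. The difference of Znrf3 with shOSGEP#1 passed with shOSGEP#1 replicate 3 omitted, at 0.95. Neither gene had a count in shOSGEP#2 replicate 2.

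Markers of the cell type were present. The 7 melanocyte markers summed to 5444, 5179 and 7259 CPM in shCtr, 5386, 6840 and 5817 CPM in shOSGEP#1, and 2140, 687 and 2774 CPM in shOSGEP#2 replicates 1, 2 and 3. Tyrp1, another enzyme of melanin synthesis, was the most abundant, and none of the 7 was at 0 throughout. All 7 are also among the MITF targets, so their changes are no separate observation. With shOSGEP#2 6 of them fell, and with shOSGEP#1 2 fell (Tyr and Gpr143), where 3.89% and 4.67% of all genes fell.

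Most markers of unrelated cell types were near 0. The summed level of 5 keratinocyte markers was at most 0.195 CPM and of 4 mast cell markers at most 0.0393 CPM in any library, with Krt5, Krt1, Krt10, Cpa3, Mcpt4 and Tpsab1 at 0. The 5 leukocyte markers summed to at most 3.18 CPM, with Lyz2 the most abundant and Itgam at 0, and the 3 endothelial markers to at most 2.18 CPM, with Pecam1 the most abundant. The 5 fibroblast markers, with Lum at 0, summed to 3.47, 4.92 and 6.55 CPM in shCtr, 4.63, 2.05 and 5.31 CPM in shOSGEP#1 and 12.1, 68.5 and 38.2 CPM in shOSGEP#2. Most of this came from Col1a1 and Col1a2, and in shOSGEP#2 replicate 2 all of it from Col1a1. The 4 Schwann cell markers summed to 958, 951 and 1496 CPM in shCtr, 718, 781 and 927 CPM in shOSGEP#1 and 1176, 608 and 1669 CPM in shOSGEP#2, most of it from Mbp. Schwann cells share a neural crest origin with melanocytes, and the part of these markers in the other results was not tested.

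Promoter windows of 300 bases around annotated starts were taken from RefSeq (GRCm38.p6), which held 13 windows for 6 of the 10 regulators. Both strands were searched for CACGTG and CATGTG, the E-box letters bound by MITF, for TGACGTCA of CREB, CTTTGAT of LEF1 and its relatives, ACAATG of SOX factors and GCCNNNGGC of AP-2. Of 32851 windows of this length, 7.15%, 14.2%, 1.79%, 3.73%, 12.6% and 16.6% held them, in that order. The windows of Mitf at its most downstream start, from which the melanocyte form is transcribed, and of Mc1r, which fell with both shRNAs, are printed 5′ to 3′ with matches in capitals. The Mitf window at chr6:97991533-97991832 (plus strand) held CTTTGAT and TGACGTCA once each, and the Mc1r window at chr8:123406832-123407131 (plus strand) held CATGTG once on each strand and GCCNNNGGC once. The matches did not overlap, and a match is a description of the letters and not of binding.
Mitf: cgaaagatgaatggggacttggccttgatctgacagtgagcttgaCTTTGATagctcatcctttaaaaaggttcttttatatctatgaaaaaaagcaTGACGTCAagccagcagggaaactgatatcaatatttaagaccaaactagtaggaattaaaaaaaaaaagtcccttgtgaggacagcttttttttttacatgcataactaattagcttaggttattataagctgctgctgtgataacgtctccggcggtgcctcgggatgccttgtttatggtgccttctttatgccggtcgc
Mc1r: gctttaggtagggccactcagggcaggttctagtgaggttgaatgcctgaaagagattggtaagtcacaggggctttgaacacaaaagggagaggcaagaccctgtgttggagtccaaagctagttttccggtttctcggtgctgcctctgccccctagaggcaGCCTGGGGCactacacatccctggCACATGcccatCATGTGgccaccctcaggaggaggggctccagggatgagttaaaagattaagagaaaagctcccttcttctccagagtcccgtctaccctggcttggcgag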

How the data were processed

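The authors used STAR for alignment of trimmed read pairs to GRCm39 and Salmon for gene quantification. They deposited whole-number counts per gene, with no normalization and no pooling of replicates. How the listed genes were selected is not given in the sources used here. Groups came from the sample labels. Gene names and lengths came from GENCODE M21 (GRCm38), which named 22237 of the 22396 identifiers.

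Genes kept by filterByExpr were tested with the quasi-likelihood test of edgeR 4.0.16 (R 4.3.3) with TMM factors, a coefficient per group and no covariate, on 8 libraries. Genes passed at p under 0.01 after Benjamini-Hochberg adjustment over all genes tested, and SE is the absolute log2 fold change over the square root of F. CPM were computed from the deposited counts. The tests were first tried on simulated data.

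The regulators and gene lists were chosen with earlier results of these data known. Beside the regulators, Osgep and Ddx58, up to 5 genes per list past the threshold with either shRNA were named, by smallest p, or the 2 most abundant, with the 5 genes most like Mitf and the 3 most opposite. Not every gene that met this rule is described. The alternatives were DESeq2 1.42.0, RLE factors, library totals, other filters, a threshold of 0.05, only the groups compared, all 9 libraries, the replicate number as a block, each library left out, TMM-scaled CPM and another gene length, and, added after seeing the data, TMM factors of all 9 libraries for the levels in shOSGEP#2 replicate 2. Exons of Tfap2a, Lef1 and Mc1r overlap annotated genes on the opposite strand that are not among those counted. Plots were drawn with matplotlib 3.10.9, and summaries used pandas 2.3.3, scipy 1.17.1 and numpy 2.4.6 under Python 3.11.15.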

Additional observations from a re-analysis of the deposited data

Results flagged for a closer look

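Sox10 and Tbx2 stood out because the effects of the 2 shRNAs differed in a direct test, with log2 fold changes of −1.04 and −1.44 for shOSGEP#2 against shOSGEP#1. The same genes stood out in shOSGEP#2 replicate 2, the library outside the tests, where Sox10 was at 1090 CPM and Tbx2 at 562 CPM, above every control library when scaled by library totals. With TMM factors of all 9 libraries Tbx2 stayed above the controls, at 369 CPM, and Sox10 was below them, at 715 CPM.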

How the results depend on the processing

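Over the 7 tested regulators, the 3 comparisons and all alternatives, 332 of 378 values kept their direction and side of the threshold. Adding shOSGEP#2 replicate 2 had the largest effect. With all 9 libraries 0 regulators and 0 genes passed in each comparison in edgeR, and in DESeq2 0 regulators and 122, 349 and 413 genes passed for shOSGEP#1 against shCtr, shOSGEP#2 against shCtr and shOSGEP#2 against shOSGEP#1. Signs turned in edgeR and DESeq2 on 9 libraries for Tfap2a between the shRNAs (−0.11 and −0.16), and with shOSGEP#2 for Sox9 (0.12 and 0.19) and Znrf3 (−0.0872 and −0.14). At an adjusted p under 0.05, 2797, 2674 and 2952 genes passed, and DESeq2 on 8 libraries called 2419, 2405 and 2592, against 1232, 1217 and 1375 in edgeR. DESeq2, no filter and the threshold of 0.05 each gave 5 regulators with shOSGEP#2 and 5 between the shRNAs, with Mitf and Tfap2a added in the former and Mitf, Mc1r and Erbb3 in the latter. With only the groups compared, 737 genes passed between the shRNAs. TMM factors of all 9 libraries, tried after seeing the data, took Sox10 in shOSGEP#2 replicate 2 from 1090 to 715 CPM, below the controls.

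Leaving out each library in turn gave 1 to 2 regulators with shOSGEP#1, and 318 to 1458, 518 to 1471 and 743 to 1504 genes in the 3 comparisons. Where 1 shOSGEP#2 library is left, it is assumed to vary like the other groups. Without a library, the log2 fold change with shOSGEP#1 ran from −0.48 to 0.34 for Mitf, −0.00976 to 0.0782 for Sox10, −0.0416 to 0.17 for Pax3 and −0.35 to 0.57 for Kitl. The replicate numbers were not taken as pairs in the main fit. The deviations of same-numbered libraries correlated at 0.0270 to 0.286, over 0.1 in 4 of 7 pairs, and not every library correlated best with its own number. All 4 of these pairs involve shOSGEP#2, whose 2 libraries deviate from their mean by equal amounts in opposite directions. These correlations therefore cannot decide whether the replicates are pairs. With the replicate block, 5 regulators passed with shOSGEP#2, Mitf and Tfap2a among them, and 3 between the shRNAs, with Mitf added. In the 3 comparisons 1380, 1238 and 1393 genes passed with the block. The causes of these shifts were not tested beyond the change of setting itself.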
